A study of Mus musculus with 29 samples.

Results

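The 3 SmoM2 libraries were set against the 4 SmoFF libraries, 7 of the 29 RNA-seq libraries in the study of mesenchymal cells around the mouse common bile duct. SmoM2 and SmoFF were chosen by their genotype labels, and all protein-coding genes were compared, with pseudogenes counted apart. SmoM2 animals carried Pdgfra:CreERT2 with the Rosa26:lox-STOP-lox-tdTomato reporter and SmoM2. SmoFF animals carried the same Cre and reporter with SmoFF. The 5 wild type animals, shown beside them, carried the Cre and the reporter alone, so every group shares both. SmoM2 is a constitutively active form of Smo, and FF is read here as a homozygous loxP-flanked allele that Cre removes. Cre is driven by Pdgfra, so the alleles are switched in Pdgfra-expressing fibroblasts, and cells that Cre did not reach may remain. The labels used here give no age, sex, strain, tamoxifen schedule, SmoM2 insertion site or flanked exon. About 1000 cells were sorted per animal, and each library is taken here as 1 animal. On that reading the p-values measure the spread between animals and their libraries. Wild type replicate 5 has a description that names SmoFF, against its title and genotype, and was treated as wild type.

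Hedgehog ligands bind the receptor Ptch1, which otherwise keeps the membrane protein Smo inactive. Active Smo turns Gli transcription factors into activators, and without it they are cut into repressors or degraded. In the gut and the biliary tree the ligands come mostly from the epithelium and act on the mesenchyme around it. Ptch1, Hhip and Gli1 are themselves target genes, so their transcripts serve as readouts of the pathway. The comparison places cells with forced Smo activity beside cells meant to lack Smo.

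Total counts were 21406062 to 24475483 in SmoM2 libraries and 18606446 to 24652617 in SmoFF libraries. Pdgfra, the marker of the labelled fibroblasts, stood at 204 to 223 CPM in SmoM2, 118 to 224 CPM in SmoFF and 187 to 242 CPM in wild type. All 12 markers of the sorted mesenchyme were tested, and 7 rose in SmoM2 (Vim, Col1a1, Col1a2, Col3a1, Lum, Pcolce and Thy1) and 0 fell. Their sum was 36120 to 41820 CPM in SmoM2, 22900 to 24670 CPM in SmoFF and 32150 to 45180 CPM in wild type. The count was 3 without SmoM2 replicate 2 or 3 or SmoFF replicate 3 or 4, and 4 without SmoM2 replicate 1 or SmoFF replicate 2. CPM is the count per 1000000 on library sizes scaled by edgeR's TMM method. SmoM2 and SmoFF also differed in pseudogene content. For 1105 pseudogenes that part wild type replicates 1 to 3 from replicates 4 and 5, the library medians were -0.02 to 0.46 log2 CPM in SmoM2, -3.33 to -2.58 in SmoFF, 0.52 to 0.79 in wild type 1 to 3 and -3.04 to -2.97 in wild type 4 and 5. Genotype and this split therefore cannot be told apart between SmoM2 and SmoFF alone. A fit with a term for the split, which sets SmoM2 against wild type 1 to 3 and SmoFF against wild type 4 and 5, is called the set-term fit below. Sex was mixed as well. Xist, the X-inactivation RNA, stood at 0 to 0.132 counts per 1000000 of the total in SmoM2. It stood at 258, 0.0406, 0 and 472 in SmoFF replicates 1 to 4. On the same scale the Y-linked genes Ddx3y, Uty, Kdm5d and Eif2s3y summed to 128 to 255 in SmoM2. In SmoFF replicates 1 to 4 they summed to 16.1, 189, 143 and 26.0. SmoFF replicates 1 and 4 thus held both Xist and Y-linked counts, and the cause was not tested. SmoFF replicate 1 stood apart on the second principal component of the 12 libraries, at -100.0, while the first, with 17.1% of the variance, parted SmoM2 (-71.2 to -39.3) from SmoFF (46.7 to 73.2). In bulk samples, fewer cells of a type and less RNA per cell cannot be told apart.

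Of 15487 protein-coding genes tested, 327 were called at an adjusted p under 0.05, or 2.11%, by the quasi-likelihood test of edgeR, adjusted by Benjamini-Hochberg over all genes. SmoM2 was higher for 177 genes (1.14%) and lower for 150 (0.969%). Over all gene types 641 of 24383 were called, or 2.63%. Pseudogenes were called more often, with 290 of 3484 (8.32%), of which 229 were higher and 61 lower in SmoM2, and their median log2 change was 0.82, against -0.08 for protein-coding genes. All 3 SmoM2 libraries lay above all 4 SmoFF libraries for 978 protein-coding genes (6.31%) and below them for 1083 (6.99%). The count of calls fell to 147, 146 and 171 without SmoM2 replicate 1, 2 or 3 and to 202 without SmoFF replicate 3. It was 138 against SmoFF replicates 2 and 3 only, whose Xist level was as low as in SmoM2, and 11 in the set-term fit. DESeq2 called 846, of which 40.1% were higher, against 54.1% higher in the edgeR fit.

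**Figure D1:**
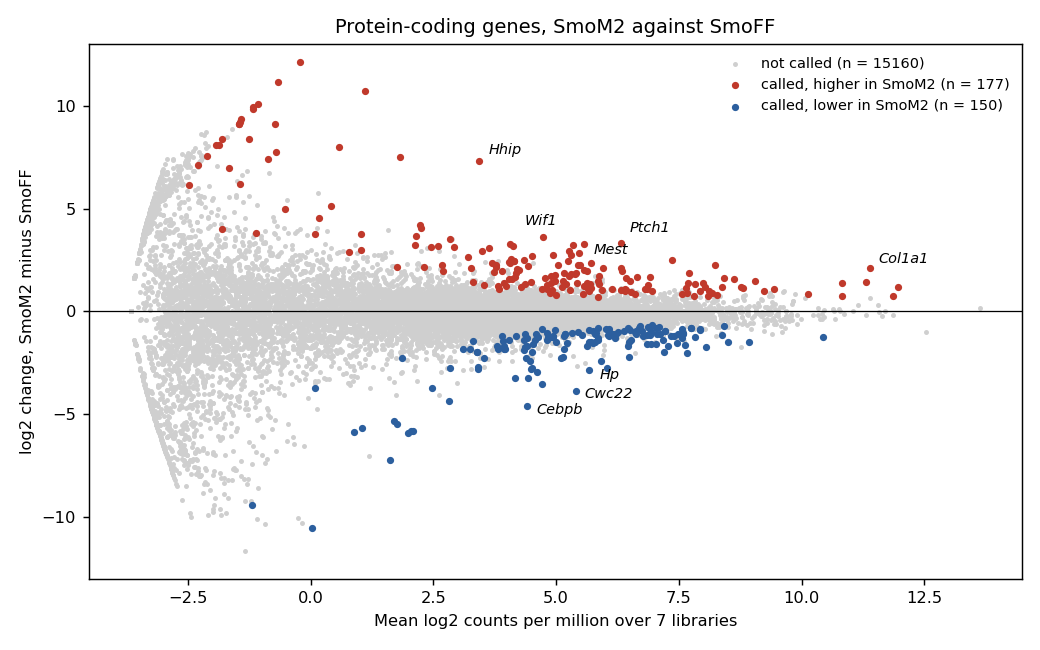
Log2 change between SmoM2 and SmoFF (y axis) against mean log2 CPM over the 7 libraries (x axis) for each protein-coding gene tested. The 177 called genes above 0 and the 150 below 0 are coloured, and Hhip stands highest among the labelled Hedgehog genes at 7.31.

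The same fit gave each genotype against wild type, with 50 protein-coding genes called for SmoM2 (0.323%) and 169 for SmoFF (1.09%). Both comparisons use the same 5 wild type libraries, so their values are only set side by side. Wild type 1 to 3 against 4 and 5 called 43 protein-coding genes (0.278%). Among the 177 genes higher in SmoM2, 49 also lay higher in wild type 1 to 3 than in 4 and 5 without overlap, or 27.7%, against 10.4% of all protein-coding genes. Among the 150 lower in SmoM2, 69 lay lower in wild type 1 to 3, or 46%, against 20.4%. The part of the library split in the calls was not tested gene by gene beyond the set-term fit.

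Smo and the feedback genes Ptch1 and Hhip rose in SmoM2. Of 13 receptors and coreceptors tested, 4 rose in SmoM2 and 0 fell, with a median log2 change of 0.47. Smo, the transducer itself (chr6:29735503-29761365, mm10), stood at 49.4, 52.8 and 37.5 CPM in SmoM2 libraries, against 9.05, 7.79, 6.81 and 7.86 CPM in SmoFF libraries. Every SmoM2 library was above every SmoFF library, with a log2 change of 2.56 ± 0.24 (SE; adjusted p = 2.04e-06). Wild type lay between them at 22.6 to 36.3 CPM, and the SmoFF change against wild type was -1.91 (adjusted p = 3.06e-05). Transcripts of the SmoM2 allele and of the native gene fall in the same count, and so do reads from any exons a deletion leaves behind.

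Ptch1, the receptor that restrains Smo (chr13:63508328-63573598), stood at 274, 385 and 248 CPM in SmoM2, against 24.6, 27.6, 32.9 and 34.0 CPM in SmoFF. Its log2 change was 3.34 ± 0.38 (adjusted p = 2.40e-05). Wild type held 20.6 to 37.0 CPM, the range of SmoFF, so the separation came with the SmoM2 libraries. Hhip, a membrane protein that sequesters Hedgehog ligand (chr8:79965851-80058006), stood at 197, 284 and 182 CPM in SmoM2, against 2.65, 1.63, 0.239 and 1.05 CPM in SmoFF. Its log2 change of 7.31 ± 0.90 (adjusted p = 7.07e-05) was the largest of the Hedgehog genes called. Wild type held 1.27 to 14.4 CPM, and SmoFF against wild type gave -2.02 (adjusted p = 0.168). Smo, Ptch1 and Hhip kept their calls without each SmoM2 and SmoFF library in turn and in the set-term fit, where the log2 changes were 2.75, 3.51 and 8.21.

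Gas1, a coreceptor for the ligands, stood at 189.7, 165 and 195 CPM in SmoM2, against 290.3, 342, 314 and 342 CPM in SmoFF. The groups did not overlap, but Gas1 was not called (log2 -0.81 ± 0.33, adjusted p = 0.218).

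**Figure D2:**
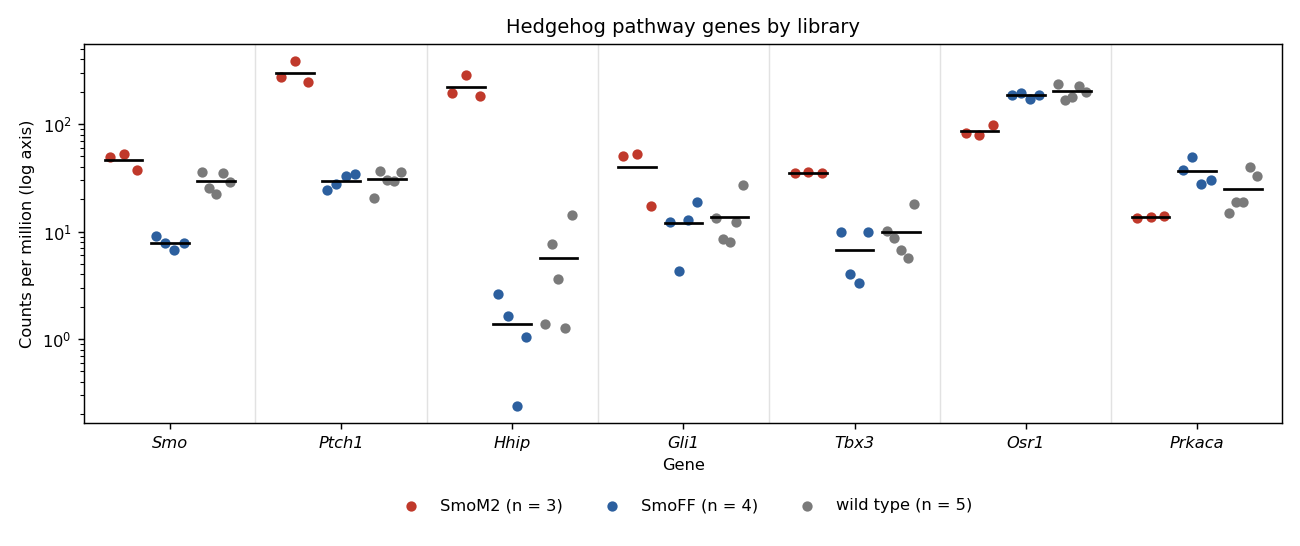
CPM on a log axis for Smo, Ptch1, Hhip, Gli1, Tbx3, Osr1 and Prkaca in SmoM2, SmoFF and wild type, with 1 dot per library and a black bar at the group mean. Ptch1 and Hhip in SmoM2 lie above both other groups, while SmoFF Ptch1 (24.6 to 34.0 CPM) falls inside the wild type range.

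The promoter windows of Ptch1 and Hhip are shown because these Hedgehog target genes had the largest log2 changes among the called Hedgehog targets. Each runs from 250 bases before to 50 bases after the RefSeq start on the GRCm38.p6 build, 5′ to 3′ on the gene's strand, at chr13:63565686-63565985 for Ptch1 and chr8:80057959-80058258 for Hhip, both minus. The Ptch1 window lies at a RefSeq start inside the longer GENCODE gene. Capitals would mark the Gli binding motif GACCACCCA on either strand, and these letters are in neither window.
Ptch1: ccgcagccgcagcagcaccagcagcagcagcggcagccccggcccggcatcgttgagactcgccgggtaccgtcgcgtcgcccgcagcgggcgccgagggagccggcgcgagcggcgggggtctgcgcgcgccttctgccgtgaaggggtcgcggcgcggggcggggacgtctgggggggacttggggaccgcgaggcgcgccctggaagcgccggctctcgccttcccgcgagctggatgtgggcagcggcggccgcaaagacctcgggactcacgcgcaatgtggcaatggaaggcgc
Hhip: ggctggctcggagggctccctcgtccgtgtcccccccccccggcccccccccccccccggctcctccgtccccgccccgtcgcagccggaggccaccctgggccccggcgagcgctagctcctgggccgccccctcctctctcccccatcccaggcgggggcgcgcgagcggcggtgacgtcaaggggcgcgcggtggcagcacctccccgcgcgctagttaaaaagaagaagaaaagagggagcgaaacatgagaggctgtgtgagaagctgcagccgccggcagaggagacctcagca
The motif was found in 0.253% of 32851 such windows, in 0 of the 132 genes called higher with a window and in 1 of 106 called lower (Sfxn1, named to complete that count). These windows cover only the start of each gene, and a motif outside them was not searched.

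The list of Hedgehog target genes includes receptor genes counted above, such as Ptch1 and Hhip, so its calls are not all further ones. Of 27 targets tested, 4 rose, among them Ptch1, Hhip and Tbx3, and 1 fell (Osr1), with a median log2 change of 0.33. Gli1, the activator most used as a pathway readout (chr10:127329882-127341974), stood at 50.5, 52.7 and 17.5 CPM in SmoM2, against 12.3, 4.29, 12.7 and 18.9 CPM in SmoFF. SmoM2 replicate 3 lay below SmoFF replicate 4, and Gli1 was not called (log2 1.74 ± 0.66, adjusted p = 0.185). Tbx3, a T-box transcription factor, stood at 34.8, 35.5 and 34.8 CPM in SmoM2, against 9.85, 4.00, 3.35 and 9.84 CPM in SmoFF. It rose by a log2 change of 2.38 ± 0.48 (adjusted p = 0.00933), and the SmoM2 libraries were nearly equal to each other.

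Osr1, a zinc-finger factor of developing mesenchyme, moved the other way. It stood at 83.1, 79.9 and 98.6 CPM in SmoM2, against 186, 194, 172 and 186 CPM in SmoFF and 169 to 239 CPM in wild type. The log2 change was -1.08 ± 0.21 (adjusted p = 0.00612), and -1.21 against wild type (adjusted p = 0.00544). Of 23 transducers and Gli factors tested, 0 rose and 1 fell, with a median of -0.10 that lay between -0.13 and 0.01 under the scalings tried. The gene that fell was Prkaca, the catalytic subunit of protein kinase A, which marks Gli proteins for processing. Prkaca stood at 13.4, 13.8 and 14.0 CPM in SmoM2, against 37.8, 49.9, 27.8 and 30.3 CPM in SmoFF (log2 -1.41 ± 0.32, adjusted p = 0.0208). Its change was -0.35 in the set-term fit, and the call ended without SmoM2 replicate 1, 2 or 3 or SmoFF replicate 2 (adjusted p up to 0.0794). Gli2, the main activator, and Gli3, the main repressor, were not called, with log2 changes of 0.70 ± 0.45 (adjusted p = 0.526) and -0.59 ± 0.33 (adjusted p = 0.421). Of the 3 ligand genes only Dhh was tested, and it was not called.

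Contractile genes of myofibroblasts were higher in SmoM2. Of 24 tested, 6 rose and 0 fell, with a median log2 change of 1.08 against -0.08 for all protein-coding genes. Acta2, smooth muscle actin, stood at 199, 171 and 185 CPM in SmoM2, against 4.11, 50.6, 9.96 and 13.5 CPM in SmoFF. The change was 3.24 ± 0.58 (log2 ± SE, adjusted p = 0.00328), and all SmoM2 libraries lay above the wild type range of 26.8 to 33.6 CPM. Myl9, the regulatory myosin light chain of smooth muscle, stood at 113, 107 and 120.3 CPM in SmoM2, against 38.3, 32.8, 10.9 and 14.5 CPM in SmoFF. It rose by 2.24 ± 0.33 on the log2 scale (adjusted p = 0.000544). Against wild type, SmoM2 gave 2.61 for Acta2 (adjusted p = 0.0313) and 1.58 for Myl9 (adjusted p = 0.0234), while SmoFF gave -0.63 (adjusted p = 0.655) and -0.66 (adjusted p = 0.283). Other genotypes held Acta2 above the wild type range too, at 101 to 278 CPM in Gli2FFGli3FF and 39 to 194 CPM in Ctnnb1FF. Gli2FF held 47.8 to 110 CPM and Gli3FF 71.2 to 80 CPM. Myl9 stood at 259 and 235 CPM in Gli3FF, and at 23.2 and 50.2 CPM in Gli2FF.

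Cnn2, a calponin that binds actin, stood at 185, 185 and 225 CPM in SmoM2, against 114, 85.2, 47.3 and 82.9 CPM in SmoFF (log2 1.27 ± 0.27, adjusted p = 0.0135). Tpm2, beta-tropomyosin, averaged 79.6 ± 11.2 CPM in SmoM2 (SD, n = 3), against 34.3 ± 12.2 CPM in SmoFF (n = 4), with a log2 change of 1.21 ± 0.29 (adjusted p = 0.0240). Actn1, an alpha-actinin, and Lmod1, a leiomodin that nucleates actin filaments, completed the 6. Cnn2 lost its call without SmoM2 replicate 3 or SmoFF replicate 3 (adjusted p up to 0.0629), and Tpm2 without any library but SmoFF replicate 2 (up to 0.103). The list held 3 calls without SmoM2 replicate 1 or 3 or SmoFF replicate 1 or 4, 2 without SmoFF replicate 3, and 9 without SmoFF replicate 2. Against SmoFF replicates 2 and 3 only, the Acta2 call was lost (log2 2.57, adjusted p = 0.0609), as was that of Tpm2 (log2 1.16, adjusted p = 0.178).

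Smooth muscle and pericyte markers were read beside these genes. Their summed level was 392.7 to 453.9 CPM in SmoM2, 277.9 to 313.5 CPM in SmoFF and 251.1 to 401.5 CPM in wild type, and 1 of 16 tested was called, Lmod1, which is also among the 6. Of the 16, 14 had a positive log2 change, with a median of 1.105. By edgeR 6 were higher and 0 lower at an unadjusted p under 0.05, beside 13.6% of all protein-coding genes in either direction. Des, Smtn, Actg2, Ndufa4l2, Ldb3, Myh11 and Lmod1 lay higher in SmoM2 than in SmoFF without overlap, as did 6.31% of all protein-coding genes. Kcnj8 and Abcc9, channel genes of pericytes, overlapped between SmoM2 and SmoFF. Myh11, the smooth muscle myosin, stood at 4.42 to 19.6 CPM in SmoM2, 0.7 to 3.05 CPM in SmoFF and 1.74 to 6.14 CPM in wild type. Rgs5, a pericyte marker, stood at 0.361 to 1.72 CPM in SmoM2 and 0.933 to 4.30 CPM in SmoFF, and Higd1b had no count in the 7 libraries. The part of such cells in the contractile result was not tested.

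Promoter windows of 3 contractile genes are shown because they moved together and carry muscle-type motifs. They are RefSeq windows on GRCm38.p6, at chr19:34255324-34255623 (minus) for Acta2, chr2:156775214-156775513 (plus) for Myl9 and chr10:79988350-79988649 (plus) for Cnn2, 5′ to 3′. Capitals mark an MCAT motif (CATTCC on either strand) in Acta2, at -146 from the start. In Myl9 and Cnn2 they mark a CArG box, the serum response element, at -161 and -56. The CArG search took only the strict pattern CCWWWWWWGG, with W for A or T. Looser forms, such as ccctatatgg and ccttgtttgg in the Acta2 window, fall outside this pattern and were neither marked nor counted.
Acta2: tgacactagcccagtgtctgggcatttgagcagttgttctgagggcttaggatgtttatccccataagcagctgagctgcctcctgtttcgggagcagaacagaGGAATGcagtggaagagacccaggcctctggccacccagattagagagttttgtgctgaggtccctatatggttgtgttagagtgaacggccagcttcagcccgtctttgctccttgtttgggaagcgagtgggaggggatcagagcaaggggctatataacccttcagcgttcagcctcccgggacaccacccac
Myl9: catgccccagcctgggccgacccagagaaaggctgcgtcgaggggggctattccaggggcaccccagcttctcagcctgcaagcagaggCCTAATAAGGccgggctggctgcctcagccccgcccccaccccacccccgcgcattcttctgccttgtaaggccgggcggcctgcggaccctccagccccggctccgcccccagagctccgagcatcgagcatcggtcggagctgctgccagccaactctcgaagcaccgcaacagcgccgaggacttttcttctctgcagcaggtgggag
Cnn2: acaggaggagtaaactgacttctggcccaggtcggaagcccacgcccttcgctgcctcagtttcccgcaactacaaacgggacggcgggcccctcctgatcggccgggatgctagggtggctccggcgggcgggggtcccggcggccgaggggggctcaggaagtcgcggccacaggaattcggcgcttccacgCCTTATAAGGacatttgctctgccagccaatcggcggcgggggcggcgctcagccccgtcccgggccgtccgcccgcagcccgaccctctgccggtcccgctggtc
CArG boxes lay in 1.63% of 32851 windows and in 4 of the 132 genes called higher that have a window (Cnn2, Myl9, Myadm and Defa30), against 0 of 106 called lower. MCAT letters were common, in 14.7% of windows, in 27 of the 132 and in 10 of the 106. The motifs do not overlap in Acta2, Myl9 or Cnn2 as marked, and a match is a description of the letters, not of a bound site.

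Collagens of the fibrillar and associated classes leaned one way throughout. Of 22 tested, 7 rose in SmoM2 and 0 fell, all 22 had a positive log2 change, and the median was 1.03. Col1a1 (chr11:94936224-94953042), the main chain of type I collagen, stood at 6701, 6210.1 and 6061 CPM in SmoM2, against 1397, 1163, 1142 and 2144 CPM in SmoFF. The groups lay far apart, with a log2 change of 2.11 ± 0.20 (adjusted p = 2.24e-06). Wild type lay between at 3185 to 5123 CPM, and SmoFF against wild type gave -1.42 (adjusted p = 0.000162), while SmoM2 gave 0.69 (adjusted p = 0.163). Col1a1 kept its call in the set-term fit, at 1.77. Of the 7 sorted mesenchyme markers that rose, 3 are collagens of this list. Of the markers not called, Pdgfrb, a receptor of mesenchymal cells, stood at 89.6 to 97.9 CPM in SmoM2 and 22.3 to 74.1 CPM in SmoFF, while Dpt, a fibroblast matrix protein, stood at 858 to 1427 CPM in SmoM2 and 1456 to 1530 CPM in SmoFF. Their part in the collagen result was not tested.

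Col1a2, the partner chain of type I, averaged 4551 ± 301 CPM in SmoM2 (SD, n = 3), against 1680.1 ± 350 CPM in SmoFF (n = 4), with a log2 change of 1.44 ± 0.17 (adjusted p = 2.87e-05). Col12a1, which binds the surface of type I fibrils, averaged 56.4 ± 24.1 CPM in SmoM2, against 9.88 ± 1.14 CPM in SmoFF (log2 2.51 ± 0.40, adjusted p = 0.00108). Col3a1, of type III fibrils, averaged 6457 ± 316 CPM in SmoM2, against 2878 ± 905 CPM in SmoFF (log2 1.17 ± 0.22, adjusted p = 0.00600). For Col1a2, Col12a1 and Col3a1 the SmoM2 change against wild type was 0.47, 0.52 and 0.03, and none was called there. The SmoFF changes were -0.96, -1.99 and -1.14, with adjusted p of 0.00133, 0.00622 and 0.00442. Col5a2, Col6a1 and Col16a1 completed the 7. In the set-term fit the list median was 0.76 and the Col3a1 change 0.73. Col1a2 (1.14, adjusted p = 0.105) and Col12a1 (2.14, adjusted p = 0.43) were not called there by edgeR. Wild type 1 to 3 lay above wild type 4 and 5 without overlap for Col1a1, Col1a2, Col12a1 and Col16a1, as for 10.4% of all protein-coding genes. They overlapped for Col3a1, Col5a2 and Col6a1. The list held 5 to 8 calls when any SmoM2 or SmoFF library was left out.

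Basement membrane genes and matrix glycoproteins followed. Of 19 basement membrane genes, 4 rose and 0 fell, with a median of 0.58. Col4a5, a minor chain of type IV collagen, averaged 74.9 ± 17.8 CPM in SmoM2, against 20.7 ± 1.93 CPM in SmoFF (log2 1.86 ± 0.22, adjusted p = 5.66e-05). Col4a6, encoded beside Col4a5, averaged 32.2 ± 5.02 CPM in SmoM2, against 10.7 ± 4.82 CPM in SmoFF (log2 1.59 ± 0.37, adjusted p = 0.0220), and SmoM2 was also higher than wild type (2.03, adjusted p = 0.00831). Col4a2 and Sparc, a collagen-binding glycoprotein, were the other calls (log2 1.12 and 0.75). Wild type 1 to 3 lay above wild type 4 and 5 without overlap for Col4a5 and below them for Col4a6. They overlapped for Col4a2 and Sparc. The list median was 0.31 in the set-term fit. Col4a2 lost its call without SmoM2 replicate 2 (0.0782), Col4a6 without any library but SmoFF replicate 2 (up to 0.0956) and Sparc without any library (up to 0.112), so the list held 1 or 2 calls without each library but SmoFF replicate 2.

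Of 36 matrix proteoglycans and glycoproteins, 10 rose and 0 fell, with a median of 0.71. Mfap4, a microfibril-associated glycoprotein, averaged 747 ± 106 CPM in SmoM2 (SD, n = 3), against 156 ± 38.4 CPM in SmoFF (n = 4), with a log2 change of 2.26 ± 0.29 (adjusted p = 0.000101). Fmod, a small leucine-rich proteoglycan that shapes collagen fibrils, averaged 140.1 ± 38.1 CPM in SmoM2, against 27.7 ± 13.4 CPM in SmoFF (log2 2.34 ± 0.37, adjusted p = 0.00103). Fmod was higher in SmoM2 than in wild type too (1.93, adjusted p = 0.00969), whereas Mfap4 was lower in SmoFF than in wild type (-1.95, adjusted p = 0.000301). Bgn, the proteoglycan biglycan, averaged 3200 ± 676 CPM in SmoM2, against 1210.3 ± 221 CPM in SmoFF (log2 1.40 ± 0.20, adjusted p = 0.000395). Mgp, an inhibitor of calcification, rose by 1.37 ± 0.28 (adjusted p = 0.00982), or 0.81 in the set-term fit, and lost its call without SmoM2 replicate 3 (0.0596). Lum, Fbln7, Mfap2, Tnc, Cilp and Pcolce completed the 10. For Bgn, Fmod, Mgp, Mfap2 and Pcolce wild type 1 to 3 lay above wild type 4 and 5 without overlap. For the others of the 10 they overlapped. The list median was 0.59 in the set-term fit. The list held 5 calls without SmoM2 replicate 1 or 3 or SmoFF replicate 3, and 6 without SmoFF replicate 2.

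**Figure D3:**
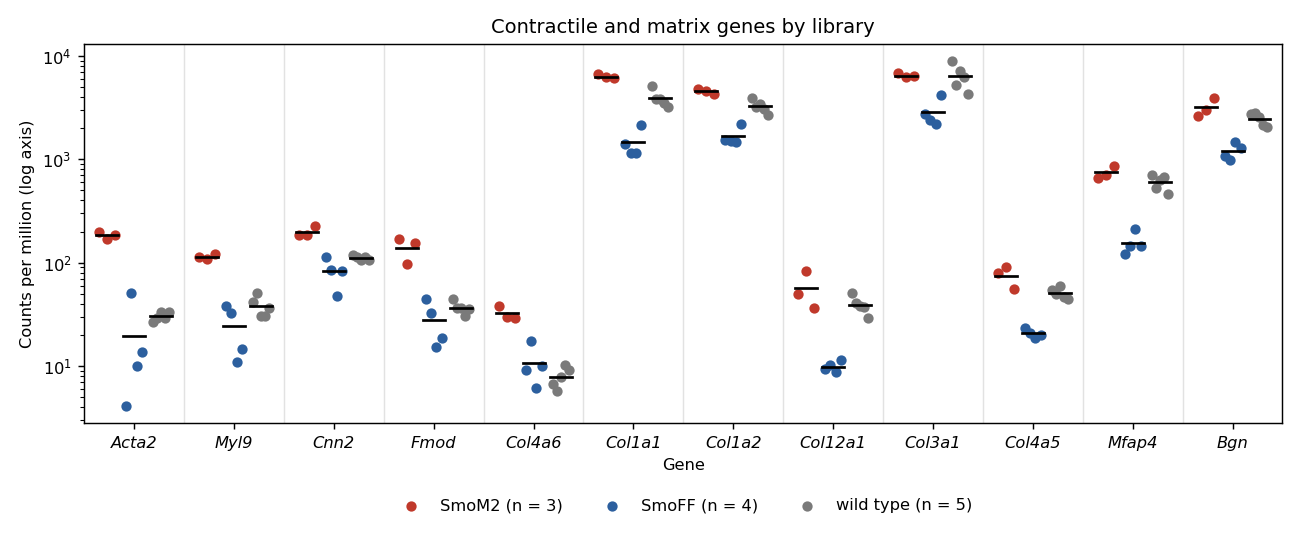
CPM on a log axis for 12 contractile and matrix genes in SmoM2, SmoFF and wild type, 1 dot per library, with a black bar at the group mean. Acta2 and Myl9 in SmoM2 lie above both other groups, whereas Col1a1 in SmoFF (1142 to 2144 CPM) lies below both.

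Remodelling genes moved in both directions, with 2 higher and 2 lower of 30 and a median of 0.20. Ctsk, the collagen-degrading cathepsin K, rose to 132 ± 13.5 CPM in SmoM2, against 61.0 ± 6.81 CPM in SmoFF (log2 1.11 ± 0.23, adjusted p = 0.0108). Adamts2, which trims procollagen, rose by 0.97 ± 0.22 (adjusted p = 0.0190). Timp2, an inhibitor of metalloproteinases, fell to 857 ± 111 CPM in SmoM2, against 2002 ± 228 CPM in SmoFF (log2 -1.22 ± 0.22, adjusted p = 0.00292). Adamts5, an aggrecan-cleaving protease, fell to 142 ± 21.3 CPM in SmoM2, against 332 ± 41.1 CPM in SmoFF (log2 -1.23 ± 0.22, adjusted p = 0.00358), and was also lower than in wild type (-1.24, adjusted p = 0.00831). Ctsk lost its call without SmoM2 replicate 3 (0.0525), which left 2 calls in the list, and its change was 0.68 in the set-term fit. Adamts2 lost it without SmoM2 replicate 1 or 3 or SmoFF replicate 1 or 2 (up to 0.0874).

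Among 41 BMP and TGF-beta genes 4 rose and 1 fell, and among these 5 the widest change in each direction was in the activin axis. Inhba, the subunit of activin A, stood at 100.5, 67.7 and 59.0 CPM in SmoM2, against 7.42, 12.4, 13.03 and 0.933 CPM in SmoFF (log2 3.16 ± 0.67, adjusted p = 0.0122). Fst, follistatin, which binds and blocks activin, stood at 6.56, 6.91 and 5.98 CPM in SmoM2, against 77.4, 49.6, 92.1 and 85.3 CPM in SmoFF (log2 -3.55 ± 0.60, adjusted p = 0.00229). The groups did not overlap for either gene, and SmoM2 also differed from wild type in both (3.22, adjusted p = 0.0225, and -2.78, adjusted p = 0.0355). For both genes wild type 1 to 3 lay below wild type 4 and 5 without overlap. The set-term fit gave 4.315 for Inhba (adjusted p = 0.177) and -2.434 for Fst (adjusted p = 0.58), so neither was called there. Tgfbi, a TGF-beta-induced matrix protein, rose by 1.66 ± 0.31 (adjusted p = 0.00573) and Ltbp3, which holds latent TGF-beta, by 1.06 ± 0.22 (adjusted p = 0.0126). Tgfb3 completed the 5. The Inhba call ended without SmoM2 replicate 1 (0.0508) and that of Ltbp3 without SmoM2 replicate 1 or 2 (up to 0.0604), and the list then held 2 and 3 calls.

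Among the Wnt lists, only the secreted modulators held calls in edgeR. Of 13 ligands and 19 beta-catenin target genes tested, 0 were called. At an unadjusted p under 0.05 by edgeR, 4 ligands were higher and 1 lower, and 6 targets were higher and 0 lower. That level was reached in either direction by 13.6% of all protein-coding genes tested. DESeq2 called 1 ligand and 2 targets and limma voom 2 of each, and the target median was 0.64. Wnt5a, a ligand of the noncanonical branch, stood at 199, 214 and 185 CPM in SmoM2, against 106, 105, 129.6 and 172 CPM in SmoFF (log2 0.64 ± 0.19, adjusted p = 0.0816), and it was called only when SmoFF replicate 4 was left out. Of 16 secreted modulators 2 rose, Wif1 and Ndp, and 0 fell, beside 1.14% of all protein-coding genes called higher. Wif1, an extracellular Wnt inhibitor, stood at 160.3, 91.9 and 161 CPM in SmoM2, against 2.34, 21.5, 17.2 and 4.12 CPM in SmoFF. Its log2 change was 3.60 ± 0.65 (adjusted p = 0.00390), and the groups did not overlap. Ndp, norrin, was listed at 0 in 3 SmoFF libraries and is given without a fold, and without SmoFF replicate 3 the list held 1 call. Dact2, an antagonist of Wnt and TGF-beta signalling, fell by 2.82 ± 0.73 on the log2 scale (adjusted p = 0.0386), a call that ended without any library but SmoFF replicate 2 (up to 0.182).

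Of 42 mesenchymal transcription factors 3 rose and 2 fell. Beside Tbx3 and Osr1, Meox2, a homeobox factor of muscle and vessel mesenchyme, rose to 45.5 ± 7.59 CPM in SmoM2, against 8.57 ± 4.76 CPM in SmoFF (log2 2.41 ± 0.41, adjusted p = 0.00236). Snai1, a repressor of epithelial genes, rose to 61.6 ± 8.56 CPM in SmoM2, against 18.4 ± 7.27 CPM in SmoFF (1.74 ± 0.27, adjusted p = 0.000909). Hes1, a Notch target, fell to 31.8 ± 2.90 CPM in SmoM2, against 89.4 ± 33.5 CPM in SmoFF (-1.49 ± 0.28, adjusted p = 0.00597). Hes1 in SmoFF was higher than in wild type (1.28, adjusted p = 0.00725), and SmoM2 was not called there (-0.21). In the set-term fit the Hes1 change was -0.95. Zbtb16, a zinc-finger repressor outside that list, stood at 7.49, 5.93 and 3.70 CPM in SmoM2, against 25.7, 21.3, 53.5 and 112 CPM in SmoFF, and its call ended without any SmoM2 library or SmoFF replicate 4 (up to 0.103).

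The largest rises included genes of varied function. Of 19 IGF binding and imprinted growth genes tested 2 rose and 0 fell, Mest and Peg3, with a median log2 change of 0.14. Mest, an imprinted gene of the hydrolase fold, stood at 144, 129 and 166 CPM in SmoM2, against 37.9, 16.4, 14.9 and 11.4 CPM in SmoFF (log2 2.86 ± 0.37, adjusted p = 0.000143). Against wild type, Mest was higher in SmoM2 (2.40, adjusted p = 0.000907) and was not called in SmoFF (-0.46, adjusted p = 0.583). Mest starts 962182 bases beyond Smo on chromosome 6. It and Smo were the 2 calls among 100 protein-coding genes tested within 10 Mb of Smo, beside 2.11% called of all protein-coding genes. Peg3, another imprinted gene, rose by 1.65 ± 0.26 (adjusted p = 0.00108). Lepr, the leptin receptor, stood at 130.3, 141 and 100.0 CPM in SmoM2, against 11.4, 17.2, 19.04 and 16.9 CPM in SmoFF (log2 2.94 ± 0.54, adjusted p = 0.00413), and Angpt4, an angiopoietin, rose by 2.74 ± 0.48 (adjusted p = 0.00292).

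Acsbg1, an acyl-CoA synthetase, rose to 74.1 ± 8.46 CPM in SmoM2, against 7.61 ± 7.39 CPM in SmoFF (log2 3.28 ± 0.57, adjusted p = 0.00282). Pla2g7, a lipoprotein-associated phospholipase, stood at 35.5, 41.5 and 62.0 CPM in SmoM2, against 5.70, 8.38, 6.13 and 1.48 CPM in SmoFF and 0.0371 to 2.01 CPM in wild type. Its change was 3.09 ± 0.69 (adjusted p = 0.0162), and both genotypes were above wild type (5.64, adjusted p = 0.000566, and 2.54, adjusted p = 0.0386). Apod, a lipocalin, stood at 73.1, 245 and 289 CPM in SmoM2, against 16.2, 12.4, 43.5 and 11.2 CPM in SmoFF (log2 3.28 ± 0.79, adjusted p = 0.0259). The Pla2g7 call ended without SmoM2 replicate 3 (0.0674) and that of Apod without SmoM2 replicate 2 or 3 or SmoFF replicate 1, 2 or 4 (up to 0.0922).

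Adventitial fibroblast genes gave 2 higher and 1 lower of 25, with a median of -0.39. Serpinf1, an antiangiogenic serpin, rose to 707 ± 107 CPM in SmoM2, against 324 ± 40.1 CPM in SmoFF (log2 1.13 ± 0.17, adjusted p = 0.000785). Thy1, a surface protein of fibroblasts, rose by 1.37 ± 0.30 (adjusted p = 0.0162), and Cd55, an inhibitor of complement, fell to 115 ± 19.4 CPM in SmoM2, against 279 ± 43.5 CPM in SmoFF (-1.28 ± 0.30, adjusted p = 0.0219). Thy1 lost its call without SmoM2 replicate 2 or 3 or SmoFF replicate 3 or 4 (up to 0.0704) and Cd55 without any SmoM2 library or SmoFF replicate 1 or 2 (up to 0.115), leaving 1 call without SmoM2 replicate 2 or 3.

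Immune-response lists held calls in both directions. Of 26 acute-phase and NF-kB response genes 0 rose and 2 fell, and of 20 complement genes 0 rose and 1 fell. Among 18 chemokines 1 rose and 0 fell, beside 2.11% of all protein-coding genes called in either direction. Hp, haptoglobin, stood at 20.9, 9.17 and 29.2 CPM in SmoM2, against 65.5, 253, 199.98 and 47.7 CPM in SmoFF (log2 -2.84 ± 0.46, adjusted p = 0.00121). SmoFF libraries spread widely here, but none reached down to SmoM2, and wild type stood at 199.98 to 219.7 CPM. Mpp6, a membrane scaffold outside any list, stood at 1.44, 16.3 and 9.53 CPM in SmoM2, against 53.6, 91.5, 74.0 and 56.6 CPM in SmoFF (log2 -2.92 ± 0.46, adjusted p = 0.000937). Of 32 interferon response genes 0 rose and 2 fell, Ifi211 (29.1 ± 3.98 CPM in SmoM2, against 85.4 ± 5.79 CPM in SmoFF; -1.56 ± 0.22, adjusted p = 0.000395) and Ifi204 (46.2 ± 7.25 CPM in SmoM2, against 84.6 ± 10.5 CPM in SmoFF; -0.87 ± 0.17, adjusted p = 0.00612). Both belong to a family of near-identical p200 genes, so reads may be split among them, and their values are uncertain. Ifi204 lost its call without SmoM2 replicate 1 (0.0518).

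Tnfaip2, a TNF-induced gene, fell by 1.14 ± 0.24 on the log2 scale (adjusted p = 0.0124), while Ccl19, a chemokine that draws dendritic cells and T cells, rose by 1.59 ± 0.32 (adjusted p = 0.00897). Their calls ended without SmoM2 replicate 1 or 2 (up to 0.0719) for Tnfaip2 and without SmoM2 replicate 3 (0.0552) for Ccl19. Immune cell markers summed to 21.5 to 73.2 CPM in SmoM2 and 16.7 to 275.6 CPM in SmoFF, and Ptprc, on all blood leukocytes, stood at 0.241 to 2.16 CPM in SmoM2 and 0 to 19.6 CPM in SmoFF. Their part in these values was not tested.

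**Figure D4:**
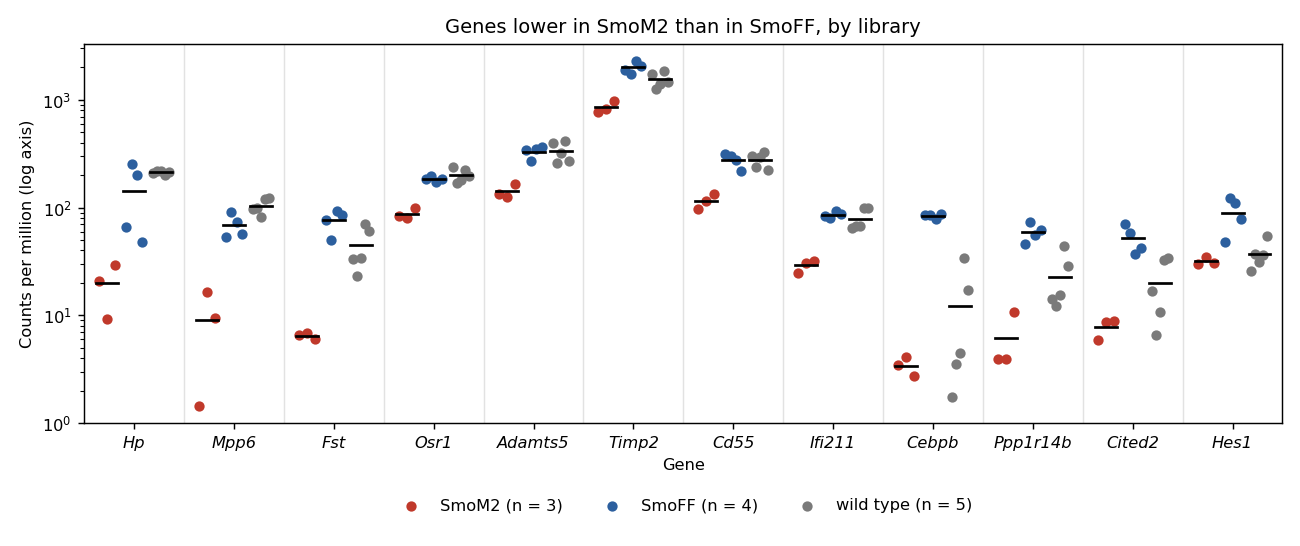
CPM on a log axis for 12 genes called lower in SmoM2, in SmoM2, SmoFF and wild type, 1 dot per library with a black bar at the group mean. Hp and Fst in SmoM2 lie below both other groups, whereas Cebpb in SmoFF (77.8 to 86.9 CPM) lies above both.

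A further set of strongly lower genes moved with the library split of the wild type. Cebpb, a transcription factor of inflammation and fat development, stood at 3.43, 4.08 and 2.71 CPM in SmoM2, against 84.5, 85.1, 77.8 and 86.9 CPM in SmoFF, with a log2 change of -4.61 ± 0.72 (adjusted p = 0.000976). Wild type ranged from 1.74 to 34.3 CPM, and the set-term fit gave -1.61. Ppp1r14b, an inhibitor of myosin phosphatase, stood at 3.94, 3.98 and 10.7 CPM in SmoM2, against 45.7, 73.9, 55.7 and 61.6 CPM in SmoFF (-3.25 ± 0.47, adjusted p = 0.000506; set-term fit -1.86). Cited2, a coactivator that restrains hypoxia signalling, averaged 7.84 ± 1.69 CPM in SmoM2, against 52.0 ± 15.3 CPM in SmoFF (-2.73 ± 0.46, adjusted p = 0.00231; set-term fit -1.19). Il17d, an interleukin, changed by -2.82 ± 0.75 (adjusted p = 0.0435; set-term fit -0.44), and Klf4, a quiescence-linked factor, by -1.11 ± 0.30 (adjusted p = 0.0491; set-term fit -0.31). Wdr89, a WD-repeat protein, rose by 2.91 ± 0.68 (adjusted p = 0.0219) but was at -0.41 in the set-term fit, the reverse direction. Calls of Il17d ended without any library, of Klf4 without any but SmoM2 replicate 1, and of Wdr89 without SmoM2 replicate 2 or 3 or SmoFF replicate 1, 2 or 3 (up to 0.178, 0.208 and 0.0796).

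Of the 64 called genes whose values were followed through every setting, 52 had a set-term change within 1.5 times the value above, and 12 did not. Those 12 were Prkaca, Wdr89, Cebpb, Ppp1r14b, Il17d, Cited2, Col3a1, Mgp, Ctsk, Hes1, Ifi211 and Klf4. The set-term fit called 5 of the 64, Smo, Ptch1, Hhip, Col1a1 and Rpl34. Standard errors were wider there, at 0.355 against 0.239 for Smo and 0.292 against 0.201 for Col1a1. A call could thus end with the log2 change almost unmoved, as for Wif1 (3.603 without the term and 3.608 with it). Without SmoM2 replicate 3 alone, 21 of the 64 were not called. Against SmoFF replicates 2 and 3 only, with Xist as low as in SmoM2, 37 of the 64 were called and 27 were not. The edgeR adjusted p of the 27 ran from 0.0501 for Meox2 to 0.243 for Apod. That fit has fewer SmoFF libraries, so a call could end there too without a smaller change. The log2 change was 3.54 there for Wdr89, against 2.91 with all SmoFF libraries, but 2.81 for Wif1, against 3.60. Among the 27 were Acta2, Tpm2, Wif1, Inhba, Lepr, Acsbg1, Pla2g7, Prkaca, Dact2, Zbtb16, Il17d, Wdr89, Col4a6, Sparc, Ctsk, Ltbp3, Thy1, Cd55, Tnfaip2, Ccl19, Ifi204 and Klf4.

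**Figure D5:**
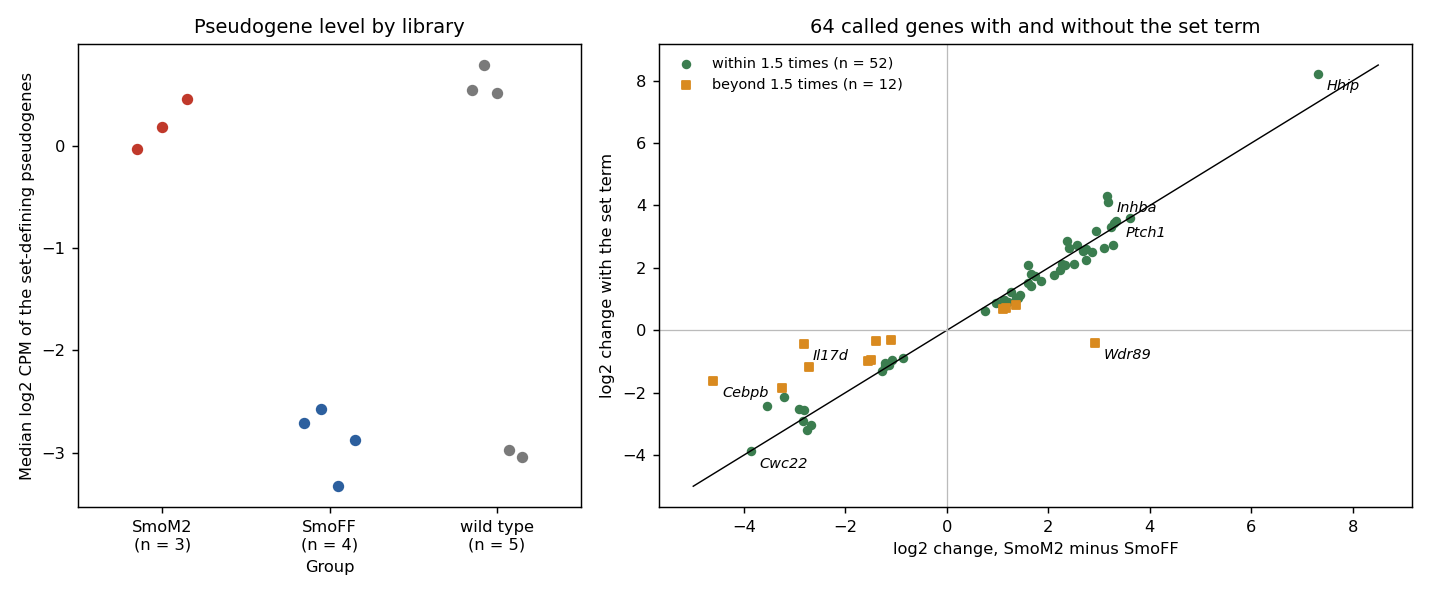
Left, median log2 CPM of 1105 pseudogenes in each library, by group. Right, log2 change of 64 called genes in the set-term fit (y axis) against the fit without the term (x axis), with 52 genes within 1.5 times of each other and 12 beyond; SmoM2 lies with wild type 1 to 3 and SmoFF with wild type 4 and 5.

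A few genes differed widely between SmoFF and both other groups and were not called between SmoM2 and wild type. Cwc22, a splicing factor (chr2:77881159-77946375), stood at 10.02, 10.6 and 7.40 CPM in SmoM2, against 89.1, 107, 174 and 175 CPM in SmoFF and 6.01 to 14.1 CPM in wild type (log2 -3.87 ± 0.52, adjusted p = 0.000221). It ranged from 67.2 to 292 CPM in Gli2FF and 36.8 to 114 CPM in Gli2FFGli3FF, which were high as well, but from 7.99 to 8.73 CPM in Gli3FF. The 7 predicted genes named Gm13691 and Gm13693 to Gm13698 on the same chromosome were also lower in SmoM2, by log2 changes between -5.93 and -5.35. Near-identical copies can share reads, so these values are uncertain.

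Rpl34, a ribosomal protein of the large subunit, stood at 91.7, 119 and 145 CPM in SmoM2, against 19.6, 17.8, 13.3 and 20.6 CPM in SmoFF and 115 to 176 CPM in wild type (log2 2.73 ± 0.25, adjusted p = 2.04e-06). It was low in other genotypes too, at 26.7 to 26.9 CPM in Gli2FF, 19.7 to 45.4 CPM in Gli3FF and 28.6 to 38.4 CPM in Gli2FFGli3FF, but not in Ctnnb1FF (319 to 346 CPM). Rpl34 was the 1 call among 46 ribosomal protein genes, whose median was -0.12, and it has pseudogenes that can take its reads. Trim12a and Gbp2b, both of families with near-identical members and named after their values were seen, also parted SmoFF from both other groups. Trim12a held 7.48 to 12.975 CPM in SmoM2, 0.117 to 0.444 CPM in SmoFF and 6.53 to 15.2 CPM in wild type, while Gbp2b held 0.0602 to 0.349 CPM in SmoM2, 14.8 to 34.1 CPM in SmoFF and 0.0269 to 0.111 CPM in wild type. In Gli2FF, Trim12a was at 0.529 to 0.616 CPM and Gbp2b at 4.47 to 7.26 CPM. The labels give no strain for any group.

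Markers of other cells were read beside these results. Mesothelial markers summed to 287.1 to 885 CPM in SmoM2 and 617.1 to 1623 CPM in SmoFF. Cholangiocyte markers summed to 41.0 to 115 CPM in SmoM2 and 52.5 to 272 CPM in SmoFF. Endothelial markers summed to 44.9 to 57.1 CPM in SmoM2 and 85.1 to 119 CPM in SmoFF. Tek alone stood at 26.2 to 33.4 CPM in SmoM2, 34.8 to 78.8 CPM in SmoFF and 54.1 to 86.2 CPM in wild type. In SmoM2 and SmoFF, Pecam1 reached at most 1.85 CPM and Cdh5 at most 1.02 CPM. Of 11 endothelial markers tested, 5 had a positive log2 change. Krt7 and Krt19 count in both the mesothelial and the cholangiocyte sums. Adipocyte markers summed to 6.49 to 16.6 CPM in SmoM2 and 7.04 to 325 CPM in SmoFF. None of these 4 lists held a call by edgeR, and unadjusted p under 0.05 was reached by 0 of 13, 5 of 14, 3 of 11 and 4 of 9 members, against 13.6% of all protein-coding genes. DESeq2 called 0, 1, 0 and 2 and limma voom 0, 0, 2 and 0. Epcam, an epithelial surface protein, had no count in SmoM2 and up to 3.66 CPM in SmoFF, and Adipoq, the adipocyte hormone, had none in SmoM2 and up to 20.4 CPM in SmoFF. The part of such cells in the calls was not tested. The lists of heat shock, unfolded protein response, cell cycle, oxidative phosphorylation, glycolysis, cholesterol synthesis and MHC genes held 0 calls by edgeR. At an unadjusted p under 0.05, cell cycle genes had 0 higher and 5 lower of 44, and unfolded protein response genes 0 higher and 6 lower of 20, beside 13.6% of all protein-coding genes in either direction. DESeq2 called 4 and 1 of these and limma voom 1 and 2. Of 19 heat shock genes 2 were higher and 3 lower at that level, with 3 calls by DESeq2 and 2 by voom, and of 20 glycolysis genes 1 and 3, with 3 calls by each. Of 22 cholesterol genes 1 was higher and 3 lower, with 1 call by DESeq2 and 0 by voom. Of 38 oxidative phosphorylation genes 1 was higher and 0 lower, and of 20 MHC genes 0 and 0, with 0 calls by either tool.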

How the data were processed

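Mesenchymal cells sorted from the common bile duct were sequenced from full-length cDNA, per the labels' protocols. The authors deposited whole-number counts per gene, without molecular identifiers, for each genotype. Per the submitters' processing notes they used mm10. The sources used here do not give the aligner, the counter, the annotation or whether strand was used. Reads copied by PCR therefore count separately, and antisense or near-identical genes can share reads.

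The counts were fitted in R 4.3.3 by edgeR 4.0.16 (filterByExpr, TMM scaling, glmQLFit, glmQLFTest) over all 23 Pdgfra-CreERT2 libraries in 7 groups, which share the estimate of spread. SmoM2 minus SmoFF was tested over 24383 genes with Benjamini-Hochberg adjustment, and genes with an adjusted p under 0.05 were called. Gene types came from GENCODE M21, in which 53399 of 55401 symbols were found, with 1093 more typed from RefSeq. The tables hold 55291 distinct symbols, and the 110 repeats were kept as separate entries. Promoter windows came from RefSeq on GRCm38.p6.

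The 41 gene lists hold 863 genes. Genes were named from the tested members of the Hedgehog lists, the 12 largest rises and 12 largest falls among called genes that average log2 CPM 3 or more and show no overlap between groups, and up to 4 called members per list, or 2 of a list with no call, and some of these were left out. Other names complete a count or were chosen after their values were seen. The members and lists were chosen with earlier results of these data known. Other settings used DESeq2 1.42.0, limma 3.58.1, other scalings and filters, covariates and left-out libraries. Libraries of a group differed by far more than sampling noise, which does not by itself show that they came from separate animals. Each was counted as 1 replicate. The script was tested on simulated data. A result that belongs to the Hedgehog lists is not reported here, though the counts include it.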

Additional observations from a re-analysis of the deposited data

Results flagged for a closer look

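In 72 gene groups of 4 SmoFF libraries, 4 held a library whose gap to the nearest other library exceeded Dixon's critical share of the whole range, and chance alone gives about 1 in 20 such groups. Gli3, the main Gli repressor, was at 21.6 CPM in SmoFF replicate 2, below the other SmoFF libraries. Apod, a lipocalin, was at 43.5 CPM in SmoFF replicate 3, above the others. Col1a2, the second type I collagen chain, was at 2204 CPM in SmoFF replicate 4, above the others. Ccl19, a chemokine, was at 7.51 CPM in SmoFF replicate 4, below the others.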

How the results depend on the processing

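Against 327 protein-coding genes called, the count was 338 with RLE scaling, 318 with upper quartile scaling, 846 with DESeq2, 912 with limma voom, 688 with no filter on low counts and 138 against SmoFF replicates 2 and 3 only, a setting chosen after seeing the data. With voom the median log2 change of all genes moved from 0 to 0.16. The set-term fit called 11. Leaving out 1 library at a time gave 146 to 344 calls. The replicate block gave 273 calls in the fit of 23 libraries and 40 with replicates 1 to 3 only. With each library taken as 1 animal, the replicate numbers share no animal. Same-numbered SmoM2 and SmoFF libraries deviated with correlations of -0.05, 0.03 and -0.05, and differently numbered ones with up to 0.08. No known pairs were at hand for comparison, so these values cannot settle whether the numbers pair the samples. Of the 64 called genes followed, 64 were called with RLE and with DESeq2, 62 with voom, 50 with Xist as a covariate, 37 against SmoFF replicates 2 and 3 only and 38 without each SmoM2 and SmoFF library in turn. The Wdr89 change reversed to -0.41 in the set-term fit, and the cause was not tested. With 3 and 4 animals and few cells per library, depth was not the main limit on precision.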

Other observations

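Fblim1 and Tgm2, chosen after their values were seen, belonged to no list. Fblim1, a filamin-binding protein of cell junctions, stood at 79.0, 86.6 and 75.3 CPM in SmoM2, against 13.9, 22.2, 15.6 and 16.7 CPM in SmoFF and 19.9 to 30.4 CPM in wild type (log2 2.23 ± 0.25, adjusted p = 2.40e-05 by edgeR). Tgm2, a crosslinking transglutaminase, stood at 437, 475 and 384 CPM in SmoM2, against 127, 126, 112 and 117 CPM in SmoFF and 101 to 201 CPM in wild type (log2 1.84 ± 0.21, adjusted p = 2.40e-05). In both genes every SmoM2 library lay above every SmoFF and wild type library. Gli3FF libraries were higher still, at 149 to 215 CPM for Fblim1 and 533 to 594 CPM for Tgm2.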
